A study of Mus musculus with 4 samples.

Results

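The AP-1 and immediate early transcription factors were examined in RNA-sequencing of mouse podocytes. The 10 genes, Fos, Fosb, Fosl1, Fosl2, Jun, Junb, Jund, Egr1, Atf3 and Myc, were found by their symbols in the deposited gene table, which holds 54532 genes, and all 10 had enough counts to be tested among 14095 genes. The cells were of the MPC5 line, a conditionally immortalized podocyte line that was differentiated without IFN-γ before the treatment. In the IL-12 treatment group (2 libraries) the cytokine was added at 400 ng/ml and the cells were taken 6 h later. The control group (2 libraries) received saline, and when its cells were taken is not stated. No genotype differed between the groups, and the comparison asks which of these factors differ after IL-12. Whether the replicate libraries stem from separate cultures is not stated, so the spread between them may be technical only. The p-values set the group difference against that spread, which is estimated with information shared across genes.

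AP-1 is a dimer of bZIP proteins, in which a member of the FOS family (FOS, FOSB, FOSL1, FOSL2) pairs with a member of the JUN family (JUN, JUNB, JUND), or a pair of JUN proteins binds together. Their genes belong to the immediate early genes, which growth factors, cytokines and stress switch on within minutes through MAP kinases without new protein synthesis, and whose mRNAs are short-lived. FOS and FOSB transcripts usually peak and vanish first, whereas FOSL1 mRNA is known to follow later and to last longer. EGR1 is a zinc finger factor, ATF3 a bZIP stress factor and MYC a bHLH factor of the same rapid response. In podocytes these factors are known from mechanical, toxic and inflammatory stimuli.

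AU-rich pentamers in the 3' UTR (ATTTA in the DNA letters) are known from many short-lived mRNAs, but a single pentamer is common among all genes. For the members that passed the test below, the 30 bases with the most pentamers are shown. Where several stretches tie, the middle one of the first run of neighbouring ties is shown. The letters are of GENCODE release M21 (GRCm38), 1 transcript a gene with the longest coding sequence, written 5′ to 3′ on the gene's strand, and the pentamers are in capitals.

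Fos, chr12:85477100-85477129: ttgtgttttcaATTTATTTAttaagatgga
Fosl1, chr19:5455866-5455895: aagggcagctgctATTTAttttcctaaaga
Fosl2, chr5:32156864-32156893: aattgacATTTAttttattATTTAttttaa
Junb, chr8:84977127-84977156: aatatatttgtgtATTTAacagggagggga
Jund, chr8:70700358-70700387: ccgattccgccctATTTAtgtttctactcg
Atf3, chr1:191171242-191171271: caccaattccaggATTTAggccttatcatc
Myc, chr15:61990134-61990163: ttaacagatttgtATTTAattgttttttta

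All 10 members had at least 1 such pentamer in the 3' UTR, against 66.6% of 11767 tested genes with a 3' UTR. The density was 4.91 per kb in Fos, 4.53 in Myc, 4.12 in Junb and 3.24 in Jun, against a median of 1.25 over those genes. It was 2.53 in Atf3, 1.88 in Jund, 1.72 in Fosl2, 1.65 in Egr1, 1.57 in Fosl1 and 0.466 in Fosb. The longer motif TTATTTATT, which contains the pentamer, occurred once in Fos and once in Fosl2 and is present in 7.57% of the 3' UTRs. Of the members described below, Myc and Junb, which rose, had densities near that of Fos, which fell, and Fosl1, which rose, was near Fosl2, which fell.

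The total counts were between 18355379 and 20098012 per library, at which 3 counts correspond to 0.149 to 0.163 CPM (counts scaled to the library total with TMM factors), for counting error only. The members together took 0.0832% to 0.085% of the counts. Mitochondrial genes took 1.94% to 2.04%. The podocyte markers were partly present. Synpo, Podxl, Cd2ap and Magi2 passed the count filter, while Nphs1, Wt1 and Lmx1b had 1, 32 and 5 counts over the 4 libraries and Tcf21 and Ptpro had 0. The summed level of the 11 podocyte markers was 819 to 842 CPM in the control group and 655 to 681 CPM in the IL-12 treatment group. Synpo fell (489 and 469 CPM against 301 and 307 CPM), and Podxl rose. Of the other lists, the 7 leukocyte markers summed to 5.22 to 6.14 CPM in the control group and 5.05 to 7.29 CPM in the IL-12 treatment group, mostly Cd68, with Adgre1 and Cd3e at 0. The 5 endothelial markers summed to at most 0.555 CPM in any library. Of the 5 tubular markers Lrp2 alone was above 1 CPM, at 658 and 632 CPM in the control group and 516 and 557 CPM in the IL-12 treatment group, and Slc34a1 and Umod were at 0. The part of these markers in the results below was not tested.

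After 6 h of IL-12, Fosl1, Myc and Junb rose, Atf3, Fos, Jund and Fosl2 fell, and Jun, Egr1 and Fosb did not pass the test (edgeR's quasi-likelihood test, Benjamini-Hochberg adjusted p below 0.05). Of the 10 members 3 were higher, where 16.1% of all genes tested were, and 4 were lower, where 14.4% were. For all 10 members the libraries of one group lay outside the range of the other, which was the case for 62.9% of all genes tested. None of the 10 changed over 2-fold, the limit that 1.61% of genes passed together with the adjusted p. That count was also 0 at an unadjusted p below 0.05, with the DESeq2 Wald test and with limma voom, and it was 1 (Fosl1) without IL12 replicate 2. The median log2 change (IL-12 over control, as throughout) of the members was -0.01, and that of all genes tested was -0.0022. In such bulk libraries, a change in the number of cells that express a gene and a change in RNA per cell cannot be told apart.

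**Figure D1:**
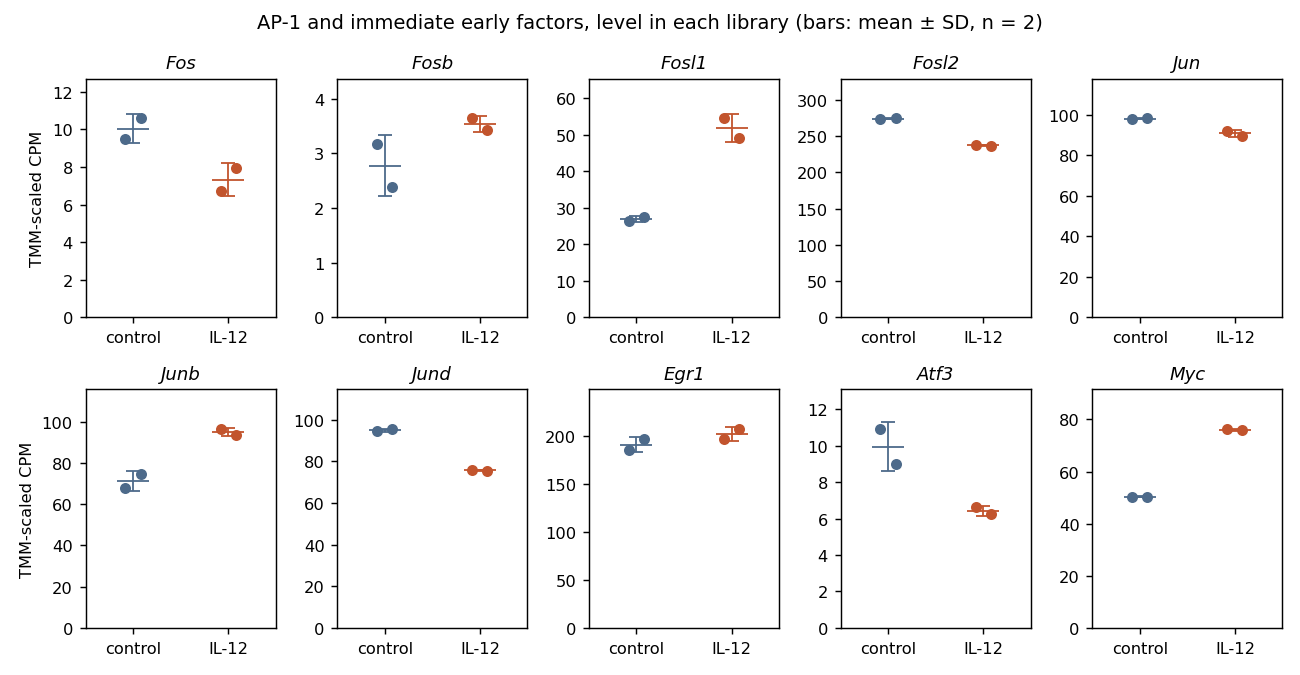
Level of each of the 10 members in TMM-scaled CPM (vertical axis, from 0, 1 scale per gene) in the control and IL-12 libraries; points are libraries and bars the mean ± SD (n = 2). The IL-12 points of Fosl1, Myc and Junb lie above the control points, and those of Fos, Atf3, Jund and Fosl2 lie below them.

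Among the FOS family, the member with the largest change was Fosl1 (ENSMUSG00000024912, chromosome 19 from 5447703 to 5455945), which encodes FRA-1. Its level was 26.3 and 27.5 CPM with saline and 54.4 and 49.1 CPM after IL-12. Both IL-12 libraries were clearly above both control libraries. On the log2 scale the change was 0.94 ± 0.07 (SE), a rise of 1.92-fold with a 95% interval of 1.73 to 2.13, so that 2-fold lay within the error. The adjusted p was 9.08e-09 by edgeR's quasi-likelihood test, and Fosl1 was at rank 148 of the 14095 genes by p and at rank 393 by the size of the log2 change.

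Fosl2 (ENSMUSG00000029135, chromosome 5 from 32135801 to 32157842), which encodes FRA-2, moved the other way. It had the highest counts of the members, with 273 and 274 CPM with saline and 238 and 237 CPM after IL-12. The groups were far apart compared with the difference within them. This was a log2 change of -0.21 ± 0.03 (SE), so that the level fell by 13.4%, with an adjusted p of 0.000104 by the same edgeR test.

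Fos (ENSMUSG00000021250, chromosome 12 from 85473890 to 85477273), the classical serum-induced gene, was low. It had 180 and 200 counts with saline and 133 and 144 after IL-12, or 9.49 and 10.6 CPM against 6.72 and 7.95 CPM. The control libraries were above the IL-12 libraries, but the spread within the groups was a large part of the difference. Its log2 change was -0.46 ± 0.14 (SE), with an adjusted p of 0.0182 by edgeR's quasi-likelihood test. This call was not stable. The adjusted p was 0.0591 without a filter on low counts, 0.12 with the DESeq2 Wald test, 0.125 without control replicate 2 and 0.187 without IL12 replicate 1, with a log2 change of -0.33 to -0.58 over the 4 fits that leave out a library. Fosb (ENSMUSG00000003545, chromosome 7 from 19302696 to 19310051) was the lowest of the members, with 60 and 45 counts with saline and 72 and 62 after IL-12. Its log2 change was 0.35, with a 95% interval of -0.12 to 0.82 and an adjusted p of 0.274 by the same test, or 0.918-fold to 1.77-fold, so that a change was not detectable at this depth.

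Within the JUN family, which supplies the main partners of FOS proteins, Junb and Jund changed in opposite directions and Jun did not pass the test. Junb (ENSMUSG00000052837, chromosome 8 from 84974484 to 84978718) was at 67.7 and 74.5 CPM with saline and at 96.3 and 93.5 CPM after IL-12. The IL-12 libraries were both higher, by more than the difference between the control libraries. The difference on the log2 scale was 0.42 ± 0.05 (SE), a rise of 33.5%, with an adjusted p of 6.75e-06 by edgeR's quasi-likelihood test. Junb shares 351 bases with Prdx2 on the opposite strand, and whether the counting used strand is not stated. Prdx2 had 20419 counts over the 4 libraries against 6293 for Junb and a log2 change of 0.01 (SE 0.03, adjusted p = 0.842 by the same test).

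Jund (ENSMUSG00000071076, chromosome 8 from 70698949 to 70700616), the JUN member that quiescent cells are known to express most steadily, was at 94.6 and 95.5 CPM with saline and at 75.9 and 75.5 CPM after IL-12. Both groups were tight, and the IL-12 libraries were lower. The change in log2 came to -0.33 ± 0.05 (SE), so that the level fell by 20.3%, with an adjusted p of 2.69e-05 by the same edgeR test. Jun (ENSMUSG00000052684, chromosome 4 from 95049034 to 95052222) was at 98.0 and 98.2 CPM with saline and at 92.1 and 89.6 CPM after IL-12. Its log2 change was -0.11 ± 0.05 (SE). The 95% interval of -0.21 to -0.01 lay below 0, but the adjusted p over all genes was 0.0822 by edgeR's quasi-likelihood test, and it passed only with upper-quartile scaling (0.0468) and with scaling by total counts (0.0181). Jun overlaps the antisense gene Junos, which had 31 counts against 7160, and Jund overlaps Gm11175, which had 0.

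Of the members outside the FOS and JUN families, the smallest p was that of Myc (ENSMUSG00000022346, chromosome 15 from 61985391 to 61990374). It was at 50.4 and 50.2 CPM with saline and at 76.2 and 75.8 CPM after IL-12. The libraries of a group were nearly equal. The log2 change was 0.60 ± 0.05 (SE), a rise of 51.2% with an adjusted p of 5.86e-08 by edgeR's quasi-likelihood test. Atf3 (ENSMUSG00000026628, chromosome 1 from 191170296 to 191218039), which various stresses induce, fell from 10.9 and 9.0 CPM with saline to 6.61 and 6.24 CPM after IL-12. All IL-12 values were below the control values, with more spread in the control group. On the log2 scale the change was -0.63 ± 0.14 (SE), with an adjusted p of 0.0024 by the same test. Atf3 overlaps Gm24748, which had 0 counts.

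Egr1 (ENSMUSG00000038418, chromosome 18 from 34859823 to 34864984) was abundant and did not pass the test. It was at 185 and 196 CPM with saline and at 197 and 207 CPM after IL-12. The groups did not overlap, but control replicate 2 and IL12 replicate 1 were almost level. The ratio of IL-12 over control was 1.06, with a 95% interval of 0.998 to 1.12 and an adjusted p of 0.145 by edgeR's quasi-likelihood test.

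**Figure D2:**
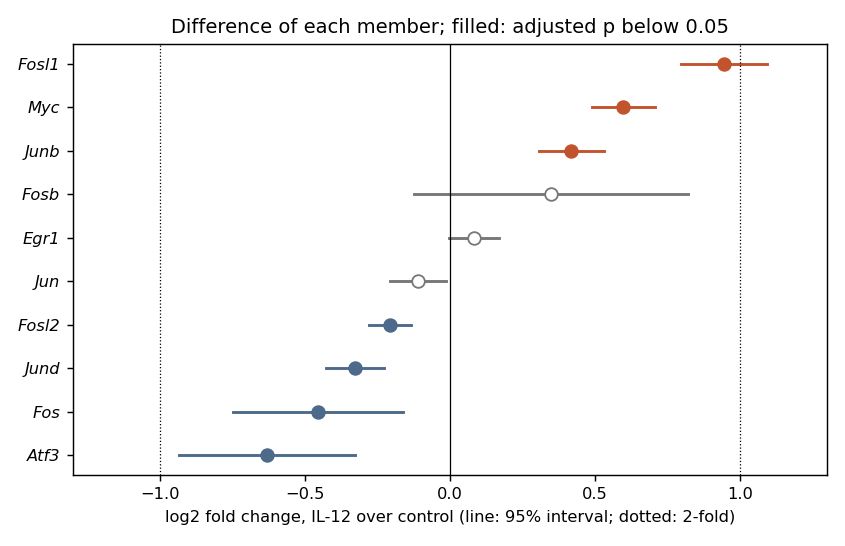
Log2 fold change of IL-12 over control (horizontal axis) of each member with its 95% interval (line); filled points passed an adjusted p of 0.05 and dotted lines mark 2-fold. Fosl1 at 0.94 and Myc at 0.60 lie farthest to the right, Atf3 at -0.63 and Fos at -0.46 farthest to the left.

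Levels were compared between members on the deposited FPKM values, which are per kilobase of gene length. In the control group the order was Jund (57.0 ± 0.468 FPKM, SD, n = 2), Egr1 (42.6 ± 1.79), Junb (30.9 ± 2.14), Jun (30.8 ± 0.0963), Fosl2 (28.3 ± 0.102), Myc (18.5 ± 0.038), Fosl1 (15.8 ± 0.521), Atf3 (4.63 ± 0.624), Fos (4.27 ± 0.335) and Fosb (0.445 ± 0.0881). Junb and Jun were not separated, and neither were Atf3 and Fos. In the IL-12 treatment group Jund (45.5 ± 0.149 FPKM, SD, n = 2) and Egr1 (45.1 ± 1.57) overlapped at the top, followed by Junb (41.3 ± 0.879). Fosl1 came next (30.4 ± 2.20), overlapping Jun (28.5 ± 0.563) and standing above Myc (28.0 ± 0.112) and Fosl2 (24.5 ± 0.0499). In FPKM, Fosl1 was thus below Fosl2 in both control libraries and above it in both IL-12 libraries. This order rests on the deposited gene lengths, 1707 bases for Fosl1 and 9680 bases for Fosl2. In CPM, Fosl2 stayed above Fosl1 in every library. Whether these lengths match the transcripts present was not tested. Fos (3.12 ± 0.372) and Atf3 (2.99 ± 0.123) overlapped again, and Fosb (0.566 ± 0.024) was last.

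The FOS and JUN family mRNA, summed over the 7 genes, was 165 and 170 FPKM with saline and 176 and 171 FPKM after IL-12. Its sum therefore differed little, while its makeup differed in every library of one group from every library of the other. The share of Fosl1 was 9.34% and 9.49% with saline and 18.1% and 16.8% after IL-12. The share of Junb was 17.8% and 19.1% against 23.8% and 23.7%. That of Jund was 34.4% and 33.7% against 25.8% and 26.5%, and that of Fosl2 was 17.1% and 16.7% against 13.9% and 14.3%. Fos made up 2.44% and 2.65% in the control group and 1.62% and 1.98% in the IL-12 treatment group. As a whole, the FOS family made up 29.2% and 29.1% with saline and 34.0% and 33.4% after IL-12. These shares are descriptions without a test, since the smallest two-sided p of an exact permutation test with 2 libraries a group is 0.333. They repeat the changes of the genes above and depend on the deposited gene lengths.

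**Figure D3:**
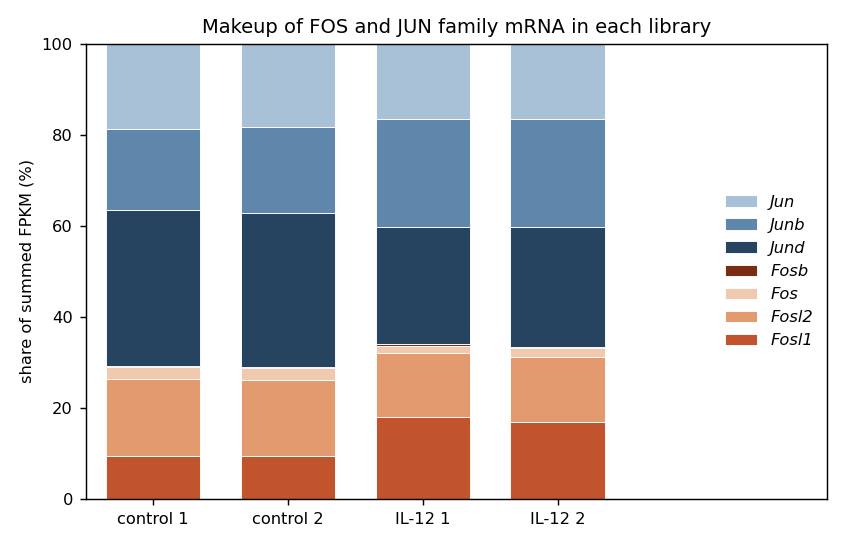
Share of each FOS (orange) and JUN (blue) family gene in the summed FPKM of the 7 genes (vertical axis, percent) in each of the 4 libraries. The share of Fosl1 is 9.34% and 9.49% in the control bars and 18.1% and 16.8% in the IL-12 bars, and that of Jund is smaller in the IL-12 bars.

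The start regions of Junb, which rose, and of Fos and Atf3, which fell, are shown. Among the members past the test that had a start region to search, these 3 held a TGACG match. TGACG is the first letters of the cyclic AMP response element, to which CREB and ATF proteins are known to bind. The 250 bases before the RefSeq start site (GRCm38.p6) are given 5′ to 3′ on the gene's strand, with the matches in capitals.

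Junb, chr8:84978749-84978998, minus strand: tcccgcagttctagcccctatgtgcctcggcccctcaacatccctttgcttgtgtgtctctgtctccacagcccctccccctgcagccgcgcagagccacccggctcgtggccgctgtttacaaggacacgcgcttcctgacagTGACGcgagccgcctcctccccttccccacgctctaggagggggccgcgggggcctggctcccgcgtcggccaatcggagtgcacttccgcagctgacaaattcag
Fos, chr12:85473640-85473889, plus strand: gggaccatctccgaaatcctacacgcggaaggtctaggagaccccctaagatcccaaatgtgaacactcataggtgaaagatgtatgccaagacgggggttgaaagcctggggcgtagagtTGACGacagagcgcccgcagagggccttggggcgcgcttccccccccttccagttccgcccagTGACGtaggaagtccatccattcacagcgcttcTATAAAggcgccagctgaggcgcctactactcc
Atf3, chr1:191183334-191183583, minus strand: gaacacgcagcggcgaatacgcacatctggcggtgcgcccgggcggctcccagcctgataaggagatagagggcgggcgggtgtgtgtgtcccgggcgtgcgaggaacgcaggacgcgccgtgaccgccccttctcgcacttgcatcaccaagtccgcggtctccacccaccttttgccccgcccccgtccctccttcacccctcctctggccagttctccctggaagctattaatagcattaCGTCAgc

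The RefSeq table held a start region for 7 of the 10 members. Fosl1, Myc and Egr1 had none and were not searched. In all 32851 entries, 7 motifs were searched on both strands from 250 bases before to 50 bases after the start site. TGACG occurred at -106 to -102 in Junb, at -129 to -125 and -66 to -62 in Fos, at -60 to -56 in Fosb and, on the other strand as CGTCA, at -7 to -3 in Atf3, where the start site is position 1. This match, which also lies inside TGACNTCA where N is G, was found in 20.8% of all entries. The TATA motif TATAAA (13.6% of entries) lay at -33 to -28 in Fos. In Junb it lay at 1 to 6 of the RefSeq start, which is 30 to 25 bases before the first base of Junb in the deposited table. The variant TGACATCA of the motif TGACNTCA (8.83% of entries), which is known as an AP-1 site of JUN promoters, was at -45 to -38 in Jun. The EGR motif GCGNGGGCG (5.55% of entries) was in Fosb at -50 to -42 and in Fosl2 at -79 to -71. The AP-1 motif TGANTCA (7.81% of entries), the E-box CACGTG (7.15%) and the CArG box that SRF binds (1.63%) had no match in the bases searched of the 7 entries. Sequence farther upstream was not searched, so the lack of a match does not show that these genes lack such sites. Jund had no match of any motif. The RefSeq start used for Jund lies 1210 bases before the gene of the deposited table, that of Atf3 lies 34706 bases inside it and that of Fosl2 671 bases inside it. The matches are descriptions of letters, and genes with TGACG were found among those that rose, those that fell and those that did not pass.

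Other immediate early genes, listed by their known rapid induction, also moved in both directions. Of the 19 listed, 17 were tested, of which 5 rose, 3 fell and 9 did not pass by edgeR's quasi-likelihood test, with a median log2 change of 0.06. Over all genes tested the shares were 16.1% higher and 14.4% lower. Maff, a small MAF protein of the bZIP class, rose from 27.6 and 35.0 CPM to 61.4 and 61.8 CPM, a log2 change of 0.98 ± 0.08 (SE), close to that of Fosl1. Cyr61, a matricellular gene of the growth factor response, rose by 0.44 ± 0.03 (SE), and Plk2, a kinase gene, by 0.19 ± 0.03 (SE). Gem, which encodes a small GTPase, fell from 30.8 and 31.3 CPM to 18.7 and 16.7 CPM, a log2 change of -0.81 ± 0.09 (SE). Btg2, an antiproliferative gene, had a log2 change of -0.32 ± 0.04 (SE), and Rhob, which encodes a small GTPase, one of -0.30 ± 0.04 (SE). Chosen after its values were seen, Egr3, a relative of Egr1, rose, with 7.07 and 6.03 CPM with saline and 10.05 and 12.1 CPM after IL-12 (log2 change 0.75 ± 0.14 SE, adjusted p = 0.000512 by the same edgeR test).

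Heat shock genes, a list taken as a possible sign of handling stress, moved in both directions. Whether these genes reflect handling stress here was not tested. Of the 7 tested of 9, 4 (Hspa8, Hspd1, Hspe1 and Hsph1) were higher and 1 (Hspa1b) was lower, while Dnajb1 and Hsp90aa1 did not pass. Over all genes tested 16.1% were higher and 14.4% lower. The summed level of the list was 3568 to 3606 CPM with saline and 4273 to 4285 CPM after IL-12. Hspa8 alone was at 1658 and 1611 CPM with saline and at 2059 and 2068 CPM after IL-12. Hspa1b was at 19.0 and 18.9 CPM against 13.2 and 12.3 CPM. Their part in the results for the immediate early genes was not tested.

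Of the bZIP genes whose proteins can pair or compete with FOS and JUN, 22 were listed and 18 were tested, of which 5 rose, 2 fell and 11 did not pass by edgeR's quasi-likelihood test. The median log2 change was 0.02. In total 38.9% of the tested bZIP genes passed, while 16.1% of all genes tested were higher and 14.4% lower. Whether this list differs from all genes was not tested. Mafk, another small MAF gene, rose from 46.0 and 48.8 CPM to 69.5 and 64.2 CPM (log2 change 0.50 ± 0.06 SE). Atf4, of the integrated stress response, and Atf1, a relative of CREB, rose by 0.24 ± 0.03 (SE) and 0.26 ± 0.05 (SE). Cebpa fell from 6.91 and 7.25 CPM to 4.44 and 4.36 CPM (log2 change -0.68 ± 0.16 SE), and Nfe2l2, which encodes NRF2, by 0.14 on the log2 scale (SE 0.04). Jdp2, which binds JUN proteins, had a log2 change of -0.01 ± 0.05 (SE). Batf, Batf2 and Batf3 were under the count filter, with 1, 26 and 11 counts over the 4 libraries. Ddit3 was not analysed here. The counts of this list moved with the processing. With the DESeq2 Wald test 3 rose and 1 fell, without a filter 3 rose, and with scaling by total counts 5 fell.

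In the list of the MYC network and the EGR corepressors, which holds MYC relatives, MAX with its partners, the MAX-like gene Mlx and the corepressors Nab1 and Nab2, 4 of the 12 genes fell, none rose and 8 did not pass by edgeR's quasi-likelihood test. Of all genes tested 14.4% fell and 16.1% rose. At an unadjusted p below 0.05 the number of rises was also 0, as it was with the DESeq2 Wald test and with limma voom. These fits use the same 4 libraries, and the list was drawn up with earlier results of these libraries known. Its counts are therefore not independent evidence of a direction. The 4 genes that fell, Mxd4, Mnt, Mxi1 and Mxd1, encode MAX partners that repress MYC targets, whereas Myc rose. Mxd4 was at 169 and 167 CPM with saline and at 99.4 and 100.2 CPM after IL-12. Both groups were tight, and the log2 change was -0.75 (SE 0.04, adjusted p = 1.47e-10 by the edgeR test). Mnt fell from 36.4 and 32.4 CPM to 21.5 and 25.9 CPM, by 0.54 on the log2 scale (SE 0.09). Mxi1 fell from 34.0 and 33.2 CPM to 24.5 and 23.6 CPM, by 0.48 ± 0.08 (SE), and Mxd1 from 19.4 and 19.7 CPM to 13.8 and 16.2 CPM, by 0.38 ± 0.10 (SE). Of the remaining MAX partners, Mxd3 had a log2 change of -0.06 ± 0.11 (SE) and Mga one of 0.08 ± 0.05 (SE), and neither passed. Max itself, the obligate partner, was at 59.1 and 53.0 CPM against 59.3 and 57.1 CPM, a log2 change of 0.06 ± 0.06 (SE). Mycn, a MYC relative, was at 31.7 and 36.2 CPM against 29.1 and 32.0 CPM (log2 change -0.16 ± 0.08 SE), and the EGR corepressors Nab1 and Nab2 had values of -0.03 and 0.02. The number that fell was 3 with the DESeq2 Wald test and 3 to 5 when 1 library was left out.

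**Figure D4:**
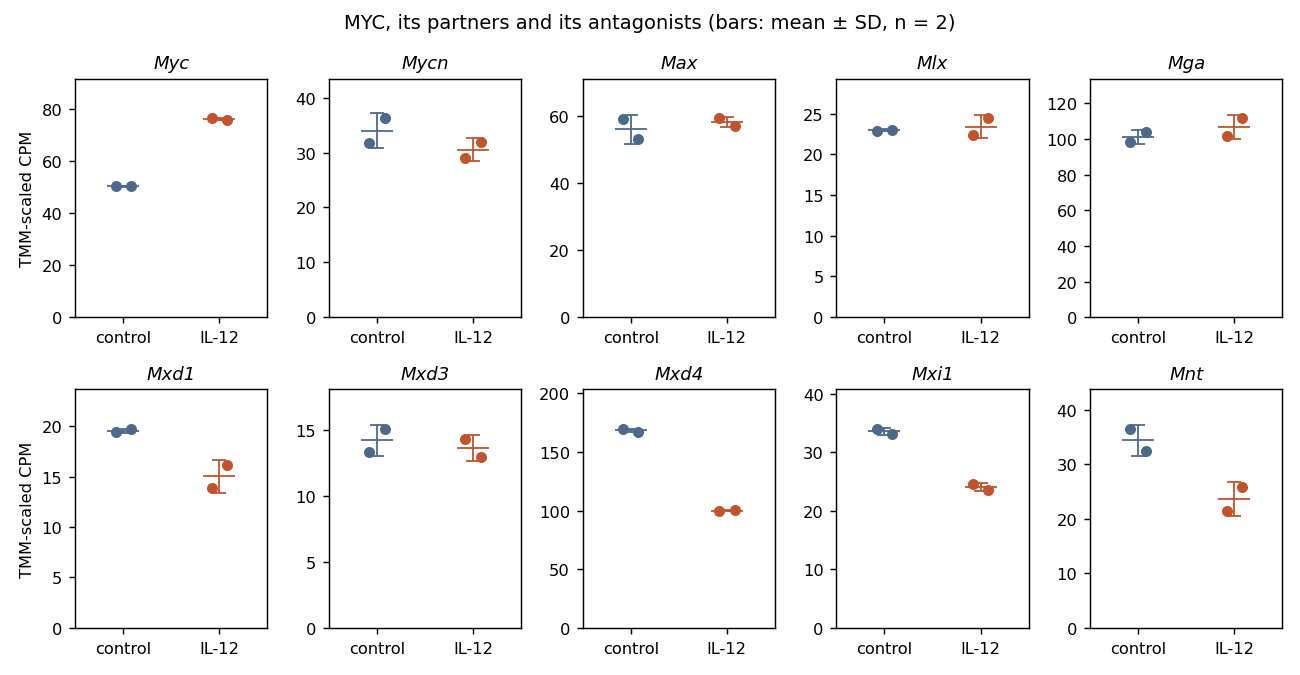
Level in TMM-scaled CPM (vertical axis, from 0, 1 scale per gene) of Myc and 9 genes of its network in the control and IL-12 libraries; points are libraries and bars the mean ± SD (n = 2). Myc rises while Mxd1, Mxd4, Mxi1 and Mnt fall, and the groups of Max, Mlx, Mga, Mycn and Mxd3 overlap.

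Upstream of these factors, the list held MAP kinase genes and the SRF and ETS factors of immediate early promoters. Of 17 genes 2 rose, 2 fell and 13 did not pass by edgeR's quasi-likelihood test, with a median log2 change of -0.02. These counts stand beside 16.1% of all genes higher and 14.4% lower, and a difference from those shares was not tested. Elk3, an ETS factor that binds beside SRF, rose from 57.3 and 57.2 CPM to 76.9 and 82.0 CPM (log2 change 0.47 ± 0.05 SE). Srf rose from 83.2 and 85.6 CPM to 107.6 and 103.9 CPM (log2 change 0.33 ± 0.05 SE). Mapk3, which encodes ERK1, fell from 145 and 148 CPM to 119 and 117 CPM (log2 change -0.32 ± 0.04 SE). Rps6ka1, a kinase gene downstream of ERK, fell from 84.8 and 83.2 CPM to 68.3 and 70.1 CPM (log2 change -0.28 ± 0.05 SE). These are mRNA levels, and phosphorylation was not measured.

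Of the genes taken as AP-1 targets, 23 were listed and 19 were tested. Their AP-1 sites were not checked gene by gene here. Of those tested, 17 rose, 1 fell and 1 did not pass by edgeR's quasi-likelihood test, and 7 rose over 2-fold. The median log2 change was 0.82, against -0.0022 over all genes tested. Over all genes tested 16.1% rose and 14.4% fell. The list was drawn up with earlier results of these libraries known, and the study itself picked Spp1, Mmp9 and Ptgs2 from them, so its counts and median are not independent evidence of a direction. The largest log2 change was that of Mmp10, a stromelysin gene, which rose from 2.06 and 1.80 CPM to 10.4 and 9.66 CPM (2.38 ± 0.18 SE). Ptgs2, Mmp9, Spp1 and Cd44 had values of 1.62, 1.44, 1.13 and 1.06. Ccl2, a chemokine gene, was low, with 1.69 and 1.64 CPM with saline and 3.48 and 3.26 CPM after IL-12 (1.02 ± 0.25 SE). The single fall was that of Mt1, a metallothionein gene, from 155 and 148 CPM to 138 and 131 CPM (-0.17 ± 0.04 SE), and it did not pass without control replicate 1 or without IL12 replicate 2. Mmp3, Mmp13, Il6 and Mmp1a were under the count filter, with 15, 3, 14 and 0 counts over the 4 libraries. The targets share many other regulators, and binding of AP-1 was not measured.

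**Figure D5:**
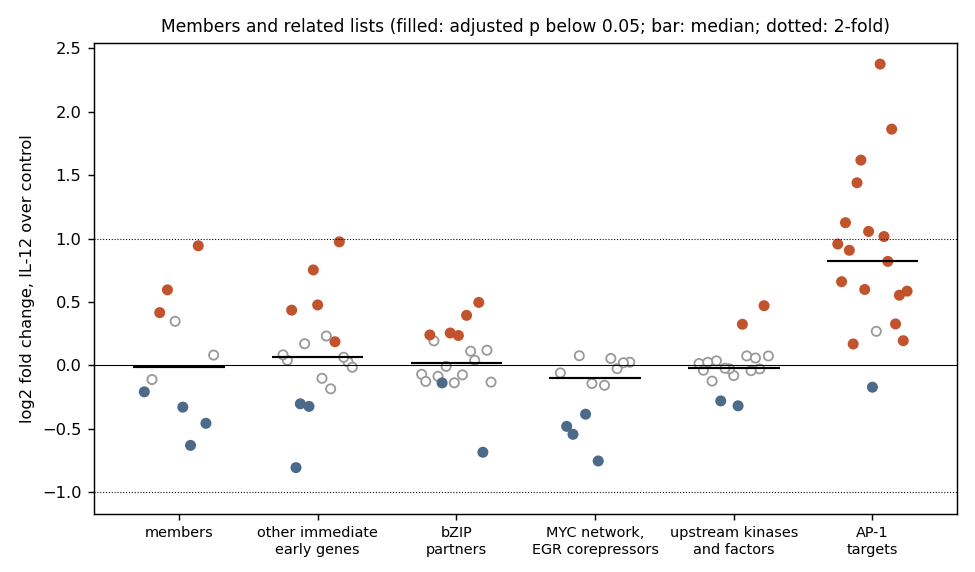
Log2 fold change of IL-12 over control (vertical axis) of each tested gene of the members and of the 5 related lists; filled points passed an adjusted p of 0.05, bars are medians and dotted lines mark 2-fold. The median is -0.01 for the members and 0.82 for the AP-1 targets, of which 17 of 19 rose.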

How the data were processed

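RNA-sequencing of 4 libraries of mouse podocytes was analysed, grouped by the sample labels. The authors deposited raw counts per gene and FPKM values, and their submission notes name HISAT2, StringTie and the build mm9 without versions. The counting program is not given in the sources used here. The gene coordinates are nevertheless those of GRCm38: start and end equal GENCODE release M21 for 98.3% of 54495 genes and for 9 of the 10 members (not Fosl1), and they are given as deposited. The deposited FPKM values equal counts per kilobase and library total times 1 factor per library (0.985 to 1.02), and were used only for levels between genes.

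Counts were filtered by edgeR's filterByExpr (at least 10 counts, 15 in total), scaled by TMM and tested with edgeR 4.0.16 (quasi-likelihood, Benjamini-Hochberg over all genes) in R 4.3.3, with limma 3.58.1 and DESeq2 1.42.0 for alternatives. The tests were checked on simulated counts. Standard errors are the log2 fold change over the root of F, and intervals are t intervals at 95%. Libraries of the same group were no duplicates (chi-square per degree of freedom 2.20 and 2.52). The shared replicate numbers are not stated to pair the libraries, so no block was used. Alternatives were other scalings, filters and tests, the block, and leaving out each library.

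The members and lists were chosen with earlier results of these data known. Named were all members, in each list every gene past the threshold up to 6 or otherwise the 3 with the smallest p in each direction, any list gene past it and over 2-fold, and a few chosen later. A few genes of these lists are not reported here by name, but are part of the counts, medians and sums.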

Additional observations from a re-analysis of the deposited data

How the results depend on the processing

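Of the 12 alternative fits, all gave 3 members higher, and 3 to 5 lower. All kept the direction of each member. Fosl1, Myc, Junb, Jund, Fosl2 and Atf3 stayed past the adjusted p in each fit. Leaving out 1 library at a time, where the lone library is assumed to vary like the other group, gave 0 to 1 members over 2-fold. For the bZIP partners, 3 rose without a filter and 3 with the DESeq2 Wald test, and 3 to 6 with a library left out. The number that fell was 4 with upper-quartile scaling, 5 with total counts and 1 with the DESeq2 Wald test, and 1 to 2 with a library left out. For the AP-1 targets 0 to 1 fell with a library left out. The cause of these shifts was not tested.

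Scaling by total counts gave 40.6% higher among all genes called, against 52.8% with TMM, and shifted the median of all genes to -0.04. With the replicate number as a block, the adjusted counts were 3 members higher and 4 lower, and 29 genes differed between the numbers. Same-numbered libraries did not deviate together across genes (correlation -0.03), and the block changed no call of a member. With 2 libraries a group the spread of a gene is poorly known, and the low counts of Fos, Fosb and Atf3 limit what they can show.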
